A study of Mus musculus with 2 samples.

Results

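The antiviral effectors described here are 10 genes that interferons induce: the IFIT genes Ifit1, Ifit2 and Ifit3, the ubiquitin-like modifier Isg15 and its protease Usp18, the IFITM genes Ifitm1, Ifitm2 and Ifitm3, Bst2 (tetherin) and Rsad2 (viperin). They were taken by symbol from 43629 listed genes, and 10 of 10 had a row in both count tables. PolyA RNA of Dicer_KO mouse embryonic stem cells (mESCs) of a 129/Ola background was sequenced in 2 libraries, replicate 1 from passage 7 and replicate 2 from passage 4. Both carry the same label, Dicer knockout, and the cells were derived from the E14TG2a line by paired CRISPR/Cas9 deletion and single-cell sorting. The study describes independent lines with different deletions, and the labels do not say which line a library came from. Line, passage and library therefore cannot be told apart, and each difference between the libraries has no replicate check. Wild-type libraries were not analysed here, so no value below says how a level stands against wild-type mESCs. The genes were selected on family and function with the counts of these libraries already known, so their values are given as a description, without tests.

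Interferons bind receptors that activate the kinases JAK1 and TYK2, and the signal passes to STAT2, which joins IRF9 and binds the interferon-stimulated response element (ISRE) in the promoters of such genes. IFIT proteins bind viral RNA, IFITM proteins sit in membranes and hinder the entry of enveloped viruses, tetherin holds budding particles on the cell surface, and viperin makes an antiviral nucleotide. Pluripotent cells respond weakly to interferon, while some of these genes, the IFITM family above all, are known to be expressed in them without it.

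The libraries held 41710122 counts on genes in replicate 1 and 41566184 in replicate 2, and 3 counts correspond to 0.0719 and 0.0722 counts per 1000000 counts on genes (CPM). Dicer1, the targeted gene, had 1343 and 1510 counts, a gene total that does not resolve the deleted exons. Of 10 mESC markers, 10 were above 10 counts on average, with Pou5f1 at 39069 and 43025 counts. The 10 summed to 10124.5 and 6516.9 CPM, 7 of them were higher in replicate 1, and Dppa5a, at 199860 and 84835 counts, was the 1 past 2-fold. Of 8 blood cell markers, 3 passed a mean of 10 counts, among them Cd68 at 1301 and 1409 and Cd3e at 642 and 299, with Adgre1 and Lyz2 at 0 in both libraries, and the 8 summed to 48.9 and 42.6 CPM. Of 8 fibroblast markers, 3 passed, among them Thy1 at 823 and 621 counts and Pdgfrb, past 2-fold, at 285 and 91. Dcn, below a mean of 10 counts, went the other way, with 0 and 19 counts. Postn was at 0 in both libraries, and the 8 summed to 27.2 and 18.1 CPM. On chromosome 15, the log2 ratio between the libraries had a median of 0.59 over 683 genes, and none of the 10 effectors lies there.

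The effectors differed widely in level. The IFITM genes took 91.3% of the effectors' counts in replicate 1 and 95.5% in replicate 2. On the scale of CPM per kilobase of exon (RPKM), the order of the mean levels was Ifitm3, Ifitm2, Ifitm1, Bst2, Isg15, Rsad2, Ifit1, Ifit2, Usp18 and Ifit3. Mean RPKM was 412 ± 51.3 for Ifitm3, 373 ± 11.98 for Ifitm2 and 338 ± 43.0 for Ifitm1 (SD, n = 2), and the range of Ifitm2 over the libraries overlapped those of both others. Ifitm3, at 447.9 and 375.3 RPKM in replicates 1 and 2, was above Ifitm1, at 368.5 and 307.7, without overlap. They ranked 84, 97 and 106 among the 17637 genes that averaged 10 counts or more and had an annotated length, whose median was 4.37 RPKM. Bst2 followed at 55.1 ± 34.2 RPKM. Isg15, at 2.73 ± 3.54 RPKM, was above that median in replicate 1, at 5.23 RPKM, and below it in replicate 2, at 0.223. The other effectors were below the median in both libraries, at 1.62 ± 0.26 RPKM for Rsad2, 1.09 ± 0.25 for Ifit1, 0.65 ± 0.22 for Ifit2, 0.24 ± 0.30 for Usp18 and 0.055 ± 0.058 for Ifit3. The range of Isg15 overlapped those of Rsad2, Ifit1, Ifit2 and Usp18, so its place in the order rests on replicate 1, and in replicate 2 alone it came after Rsad2, Ifit1 and Ifit2. The ranges of Usp18 and Ifit3 overlapped as well.

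**Figure D1:**
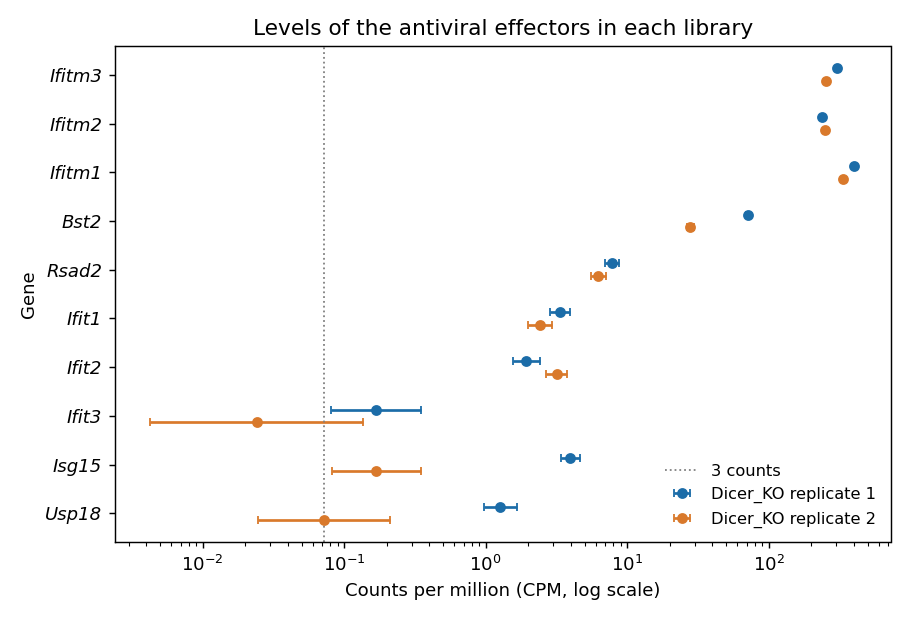
CPM (log scale) of the 10 effectors in the 2 Dicer_KO libraries. Points are single libraries, bars are 95% Wilson intervals for counting error, and the dotted line marks 3 counts. The IFITM genes sat between 239 and 403 CPM in both libraries, and Isg15 was at 3.96 CPM in replicate 1 and 0.168 in replicate 2.

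Most of the effectors share a short promoter sequence. They were described as genes that interferons induce, and the ISRE is the element bound in such promoters. Its share among them is therefore no independent result. RefSeq promoter windows, 250 bases before to 50 after a start site on GRCm38, were found for 9 of the 10 genes, the exception being Usp18. The ISRE core, searched on both strands as GAAA, any 2 bases and GAAA again, was present in 7 of these 9 genes and in 3.44% of all 32851 promoter windows. More than 1 match, which may overlap each other, was found for 5 of the 9 genes and in 0.225% of all windows. The matches below are shown because their letters are those of the element that STAT2 and IRF9 are known to bind together, and a match is not itself a shown site. Each is given 5′ to 3′ on the strand of its gene, with the 10 bases of the core in capitals in either orientation.
Isg15: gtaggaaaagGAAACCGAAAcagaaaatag
Ifit1: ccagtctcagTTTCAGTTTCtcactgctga
Ifit3: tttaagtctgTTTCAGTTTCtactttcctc
Bst2: ccaggaaaatGAAACTGAAAggctgcagtt
Rsad2: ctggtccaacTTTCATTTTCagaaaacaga
Ifitm2: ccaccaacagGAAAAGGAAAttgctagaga
Ifitm3: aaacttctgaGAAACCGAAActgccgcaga

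These stretches lie at chr4:156200871-156200900 (Isg15, minus strand), chr19:34640794-34640823 (Ifit1, plus), chr19:34583397-34583426 (Ifit3, plus), chr8:71537577-71537606 (Bst2, minus), chr12:26456553-26456582 (Rsad2, minus), chr7:140955988-140956017 (Ifitm2, minus) and chr7:141010706-141010735 (Ifitm3, minus). The core began 72 bases before the start site in Isg15, 85 in Ifit1, 122 in Ifit3, 124 in Bst2, 120 in Rsad2 and 46 in Ifitm2. In Ifitm3 it lay after the start site, from base 20 of the transcribed part. Isg15 had 3 overlapping matches in one run. The stretch of Ifit3 recurred letter for letter in the promoter of its copy Ifit3b, and that of Ifit1 was read from the other strand in a promoter window of Ifit1bl2, which starts next to it.

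Neither window of Ifit2 and not that of Ifitm1 held these letters, which says nothing about sites elsewhere. The gamma-activated site (GAS), searched as TTCNNNGAA, which reads the same on both strands, was found in 3 of the 9 genes, Ifit2, Ifitm3 and Bst2, against 8.30% of all windows. In Ifitm3 and Bst2 it overlapped an ISRE core. The GC content of the windows was between 46.3% and 53.7%, where the median of all windows was 52.7%.

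**Figure D2:**
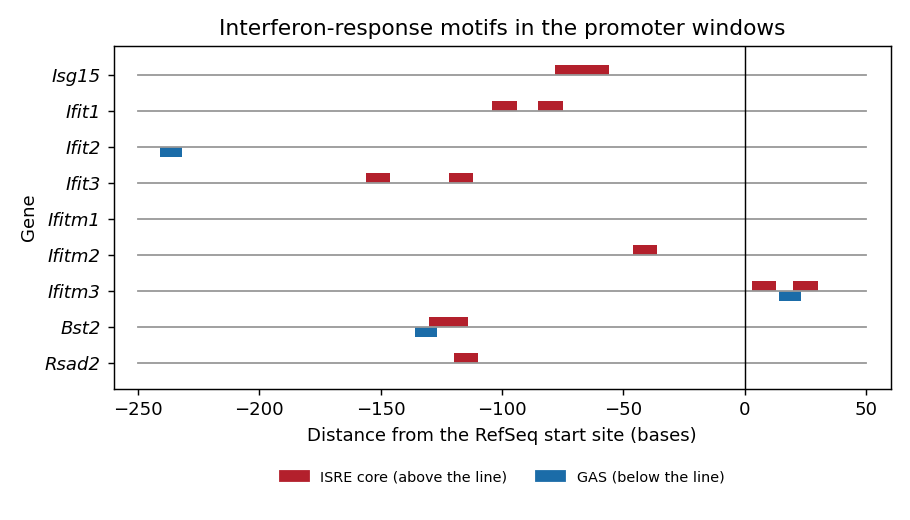
Positions of ISRE core (red, above the line) and GAS (blue, below the line) matches in the promoter windows of 9 effectors, by distance in bases from the RefSeq start site. The ISRE cores lay upstream of the start site in 6 genes and downstream in Ifitm3. Ifit2 has 2 start sites, drawn on 1 line.

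Between the libraries, log2 ratios of replicate 1 over replicate 2 were taken after TMM scaling, with a pseudocount of 1. Of the 10 effectors, 9 averaged at least 10 counts and Ifit3 did not. Isg15 and Usp18 passed only through replicate 1. Isg15, Usp18 and Bst2 were more than 2-fold higher in replicate 1, and none was more than 2-fold higher in replicate 2. Over all 17788 genes tested, 14.2% were more than 2-fold higher in replicate 1 and 7.12% in replicate 2. The median log2 ratio of the 9 genes was 0.21, against 0.02 for all genes tested, whose middle 90% ran from -1.23 to 1.86. The 95% interval for counting error left out 0 for 7 of the 10 genes and held it for Ifit1, Ifit3 and Rsad2. Such intervals narrow with depth and leave out 0 at small ratios in abundant genes. The same count was not made over all genes, so it cannot be read as particular to the effectors.

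**Figure D3:**
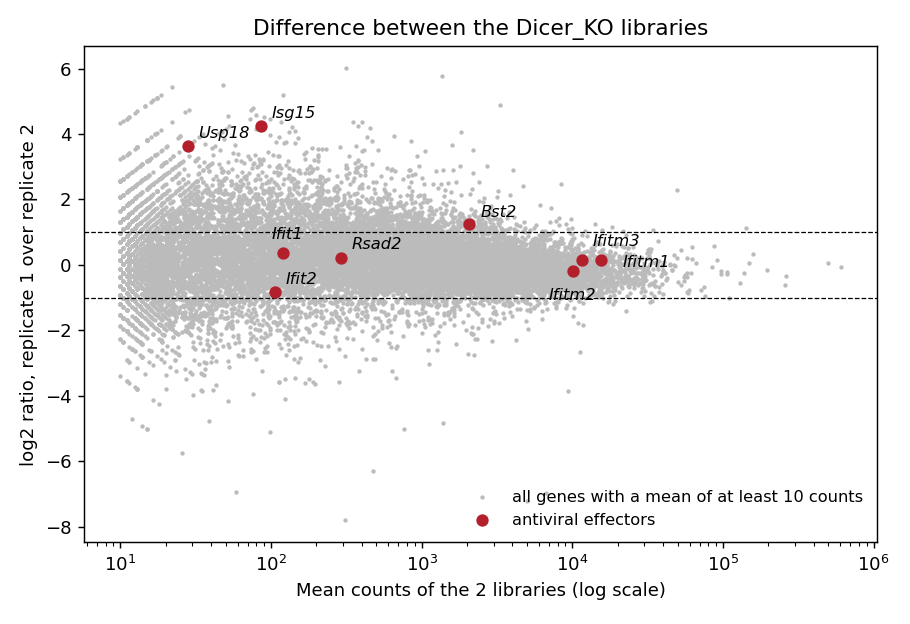
The log2 ratio of replicate 1 over replicate 2 against the mean counts of the 2 libraries (log scale) for 17788 genes (grey) and 9 effectors (red). Dashed lines mark 2-fold. Isg15 at 4.26 and Usp18 at 3.65 lie near the upper edge, while the IFITM genes lie between -0.18 and 0.14.

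Isg15 (chromosome 4, 156199424 to 156200818), whose product is conjugated to proteins like ubiquitin, had 165 counts in replicate 1 and 7 in replicate 2. These are 3.96 CPM (95% Wilson interval 3.40 to 4.61) and 0.168 CPM (0.0816 to 0.348). With the pseudocount of 1, its normalised count was 19.2-fold higher in replicate 1, a log2 ratio of 4.26. The counting interval, taken without a pseudocount, was 3.36 to 5.77. Of all genes tested, 0.202% had a ratio as high, which gives its position and is no test. Isg15 was chosen with its counts known and passed the filter only through replicate 1. Usp18 (chromosome 6, 121245906 to 121270917), which removes ISG15 from proteins and restrains the type I interferon receptor, had 53 and 3 counts. Its log2 ratio was 3.65, with an interval of 2.395 to 6.34. Both genes were thus higher in replicate 1 and at or near the level of 3 counts in replicate 2, so that the size of the ratio rests on few counts of replicate 2.

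The enzymes that attach ISG15 were read beside them. Uba7, the activating enzyme, had 565 counts in replicate 1 and 61 in replicate 2, a log2 ratio of 3.07 (counting interval 2.71 to 3.50). Ube2l6, the conjugating enzyme, had 298 and 136 counts, at 1.00 (0.71 to 1.31), which lies on the 2-fold line. Herc6, the main ligase of the mouse, had 60 and 32 counts, at 0.77 (0.14 to 1.45). Trim25, which can also act as a ligase for ISG15, was abundant in both libraries, at 11313 and 11787 counts, and had a log2 ratio of -0.18 (-0.22 to -0.14). Thus 2 of the 4 enzymes were past 2-fold, both higher in replicate 1, against 14.2% of all genes tested in that direction. Of the 4, only Uba7 was beyond 4-fold, as were Isg15 and Usp18. Of all genes tested, 4.16% were more than 4-fold higher in replicate 1.

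Bst2 (chromosome 8, 71534255 to 71537456), the surface tether of budding viruses, had 2984 counts in replicate 1 and 1161 in replicate 2. These are 71.5 CPM (69.0 to 74.2) and 27.9 CPM (26.4 to 29.6), a log2 ratio of 1.24 (1.14 to 1.34). It was the only one of the abundant effectors past 2-fold, and its RPKM in the lower library, 30.9, was still above those of the 6 other effectors outside the IFITM family.

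The IFITM genes differed little between the libraries. Ifitm1 had 16816 counts in replicate 1 and 13993 in replicate 2, a log2 ratio of 0.14 (counting interval 0.11 to 0.18). Ifitm3 had 12667 and 10578 counts, at 0.14 (0.10 to 0.18). Ifitm2 had 9957 and 10384 counts, at -0.18 (-0.22 to -0.14), so that it was the one IFITM gene higher in replicate 2. The counting intervals are narrow at this depth and leave out 0 in all 3 genes, yet each ratio lay within the interquartile range of all genes tested, -0.38 to 0.54. Ifitm1, Ifitm2 and Ifitm3 lie within 55.9 kb of chromosome 7. Their transcripts share sequence, and 48.5% of the 50-base windows of Ifitm2 also occur in transcripts of other genes, against 10.02% for Ifitm3 and 6.36% for Ifitm1. In the GENCODE M21 annotation, 40.9% of the exon bases of Ifitm2 also lie in exons of Gm45717. Reads on overlapping genes were not counted, but the authors counted on another annotation, and whether it held Gm45717 was not checked. The level of Ifitm2 is therefore uncertain.

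The other IFITM genes of the mouse were low. Ifitm5, known from bone, had 31 counts in replicate 1 and 28 in replicate 2. Ifitm6 had 16 and 6, Ifitm7 had 10 and 29, and Ifitm10 had 1 and 1. Ifitm6 was more than 2-fold higher in replicate 1, at 1.17 with a counting interval of -0.135 to 2.93, and passed the filter only through that library. Ifitm7 lies on chromosome 16, apart from the chromosome 7 genes, and was more than 2-fold higher in replicate 2, at -1.56 (-2.86 to -0.58).

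The IFIT genes, which lie within 99.3 kb of chromosome 19, did not differ in 1 direction. Ifit1, whose product binds RNA caps that lack methylation, had 140 counts in replicate 1 and 100 in replicate 2, with a log2 ratio of 0.36 (-0.02 to 0.75). Ifit2, its partner in IFIT complexes, had 81 and 132 counts and was lower in replicate 1, at -0.82 (-1.24 to -0.42). Ifit3 had 7 counts in replicate 1 and 1 in replicate 2, a log2 ratio of 1.92 whose interval ran from -0.28 to 8.18, so no difference was detectable at this depth. Of the 50-base windows of Ifit3, 51.2% also occur in Ifit3b, and reads of the pair may have been lost in counting. Ifit3b itself had 0 counts in both libraries, which by the limit of 3 counts allows up to 0.0719 and 0.0722 CPM, and Ifit1bl1 (5 and 4 counts) and Ifit1bl2 (8 and 5 counts) were near that limit. Rsad2 (chromosome 12, 26442746 to 26456452) had 326 counts in replicate 1 and 259 in replicate 2. Its log2 ratio of 0.21 (-0.03 to 0.45) did not exceed the counting error.

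The interferon ligands were almost absent from both libraries. Of 10 ligand genes, 6 had 0 counts in both, and the 10 summed to 10 counts in replicate 1 and 2 in replicate 2, with Ifnb1 at 1 and 0. The 18 other signalling genes all passed the filter, and 4 of them, Il10rb, Irf2, Irf7 and Socs3, were more than 2-fold higher in replicate 1, with none in the other direction. These 4 are 22.2% of the 18, where the share among all genes tested was 14.2%. Of the receptor chains of type I interferon, Ifnar1 had 2305 counts in replicate 1 and 3346 in replicate 2, at -0.66 (-0.74 to -0.58), and Ifnar2 had 230 and 198, at 0.09 (-0.19 to 0.38). The kinases Jak1 and Tyk2 were at -0.08 and 0.30. Of the ISRE-binding factors, Irf9 had 2944 and 2482 counts, at 0.12, and Stat2 had 2484 and 1222, at 0.90 (0.80 to 1.00). Irf7, a factor that is itself induced by interferon, had 148 counts in replicate 1 and 4 in replicate 2, at 4.79 (3.70 to 6.98). It passed the filter only through replicate 1. Its ratio was the one nearest to that of Isg15 among the signalling genes.

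**Figure D4:**
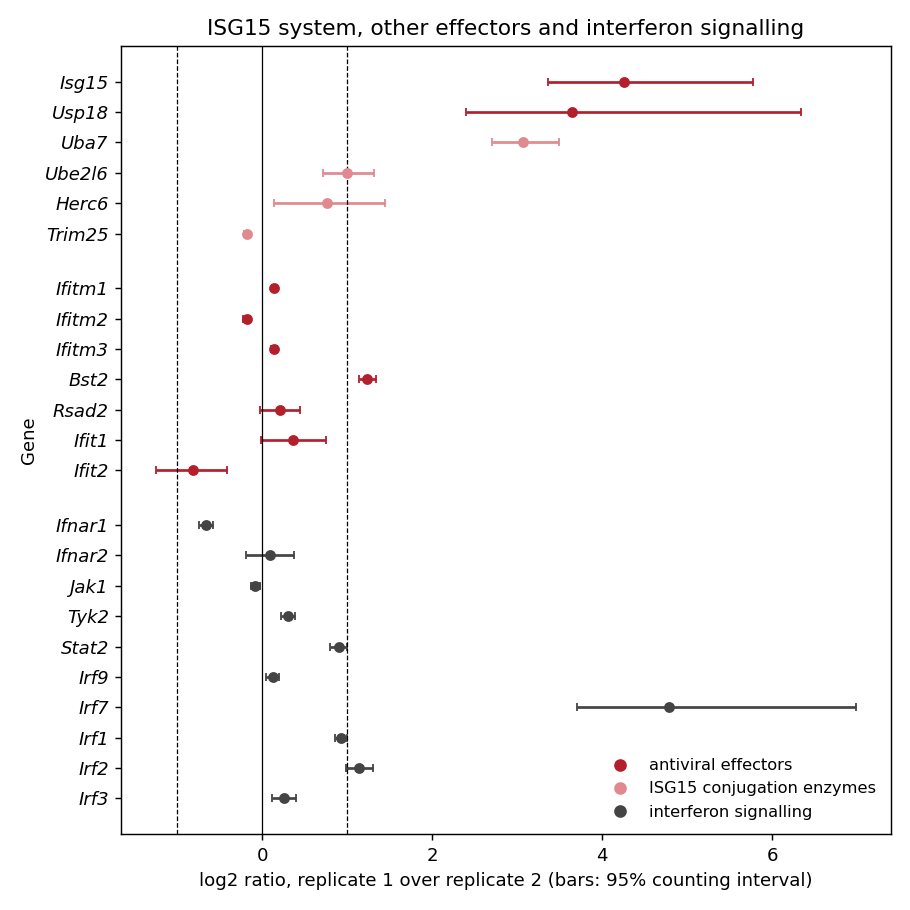
Log2 ratio of replicate 1 over replicate 2 for the 9 effectors that averaged at least 10 counts, the ISG15 conjugation enzymes and 10 interferon signalling genes, with 95% intervals for counting error. Dashed lines mark 2-fold. Isg15, Usp18, Uba7 and Irf7 lie above 3, while Irf9 lies at 0.12.

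Of 50 other interferon-induced effectors, 48 were matched to a row and 44 passed the filter. More than 2-fold higher in replicate 1 were 21 of the 44, and 2 were more than 2-fold higher in replicate 2. The 21 are 47.7% of the 44, where 14.2% of all genes tested were that much higher in replicate 1 and 7.12% in replicate 2. Some of the 21, Ifi27 among them, passed the filter only through replicate 1, as Isg15 and Usp18 did. The median log2 ratio of the 44 was 0.93, against 0.02 for all genes tested, and the list was put together with results of these libraries known. The highest ratios belonged to Ifi27, with 144 and 4 counts, at 4.75, to Oasl2, an OAS-like protein, with 2969 and 214 counts, at 3.67, and to Rtp4, with 155 and 16 counts, at 3.08. The lowest belonged to Ddx58, which encodes the RNA sensor RIG-I, with 2525 and 5147 counts, at -1.15, to Tlr3, a sensor of double-stranded RNA, with 132 and 264 counts, at -1.12, and to Oas1g, with 492 and 602 counts, at -0.41.

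Markers of other cell types were unequal between the libraries as well. All 4 trophectoderm markers that passed the filter were more than 2-fold higher in replicate 1, against 14.2% of all genes tested. Krt7 had 2674 and 44 counts and Tfap2a 192 and 34, while Cdx2 had 6 and 1. The 5 trophectoderm markers summed to 78.5 CPM in replicate 1 and 5.80 in replicate 2, of which Krt7 alone made 64.1 and 1.06. Of the primitive endoderm markers, 2 of 5 that passed were more than 2-fold higher in replicate 1. They were Dab2 and Gata6, and Gata6, with 16 and 5 counts, passed only through replicate 1. The 6 primitive endoderm markers summed to 18.2 and 10.6 CPM, of which Gata4, within 2-fold at 0.76, made 14.05 and 7.65. Sox17 was at 0.33, and Pdgfra was slightly higher in replicate 2, at -0.19 (-0.64 to 0.26). Krt7 and Dab2 lie on chromosome 15, where the median log2 ratio was 0.59. Of the primordial germ cell markers, 3 of 6 were more than 2-fold higher in replicate 1, and the 6 summed to 247 and 139 CPM. The 3 were Prdm1, Nanos3 and Tfap2c, and Tfap2c alone made 89.7 and 31.5 CPM. Dnd1 was at 0.19 and Prdm14 at 0.02, and Dppa3 was the 1 marker higher in replicate 2, at -0.31 (-0.52 to -0.11). Whether such cells were present and had a part in the differences of Isg15, Usp18 and Bst2 was not tested. In bulk libraries, more cells of a type cannot be told apart from more RNA per cell.

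Genes beside the effectors were read to see whether whole segments differed. Cmpk2, an interferon-induced nucleotide kinase 12752 bases from Rsad2, had 141 and 45 counts, at 1.51 (1.03 to 2.04), while Rnf144a on the other side was at 0.09. Agrn, 1936 bases from Isg15, had 26486 and 16273 counts, at 0.58 (0.55 to 0.61). Mvb12a, 5466 bases from Bst2, was at 0.48, and Plvap on its other side at 0.92 with 38 and 18 counts. Lipa, on the lower-coordinate side of the IFIT genes, was at 1.37 (1.16 to 1.59), opposite in sign to Ifit2, and Pgghg, beside the IFITM genes, was at 0.07. The 5 other neighbours, among them both of Usp18, were below a mean of 10 counts.

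With 2 libraries, likeness between genes is only closeness of both levels, measured as the distance on the log2(CPM + 0.1) scale. The genes closest to Isg15 were Slc2a12 (153 and 7 counts) and Tmprss2 (174 and 6). Closest to Ifit2 were a gene with no matched symbol (83 and 131 counts) and Tcea2 (78 and 135), and closest to Ifitm3 were Ncapd2 (12554 and 10388) and Pecam1 (12422 and 10636).

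DICER makes the mature miRNAs, and in mESCs the most abundant of these belong to the miR-290 cluster, which shares its seed with the miR-302 family. Examples from RefSeq on GRCm38 are given with the seed, bases 2 to 8, in capitals, because a gene's 3′ untranslated region can be searched for the matching letters.
miR-291a-3p: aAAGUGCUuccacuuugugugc
miR-294-3p: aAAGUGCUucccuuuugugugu
miR-295-3p: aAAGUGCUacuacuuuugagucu
miR-302b-3p: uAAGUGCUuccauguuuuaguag

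The complement of this seed, AGCACTT, was found in the longest annotated 3′ untranslated region of 1 of the 10 effectors and in 15.3% of 21173 genes. That gene was Ifit2, with 1 match that starts at base 480 of 1945: actgtaatcctAGCACTTggaatctgagac. The regions of Isg15, Ifitm1, Ifitm2, Ifitm3 and Bst2 have between 139 and 244 bases, below the median of 1084, and shorter regions hold fewer matches by length alone. Rsad2, with 3613 bases, had none. A match of letters is not itself a shown site, and whether miRNAs bind the one in Ifit2 was not tested.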

How the data were processed

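The authors trimmed paired-end reads with Trimmomatic, aligned them to mm10 with STAR (version 2.4.2a) and obtained read counts per Ensembl gene with featureCounts (version 1.4.5-p1). Reads where genes overlap were ignored. The authors deposited raw counts without normalization. How reads with several alignments were counted is not given in the sources used here. Libraries were prepared with a reverse-stranded protocol, per the labels.

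TMM factors came from edgeR (version 4.0.16) and alternative size factors from DESeq2 (version 1.42.0). CPM used total counts. Log2 ratios used a pseudocount of 1 and genes averaging at least 10 counts. Intervals are 95% (Wilson for CPM, exact conditional binomial for ratios) and cover counting error only. The intervals for ratios were computed without the pseudocount, which makes ratios that rest on few counts smaller. Both libraries form 1 group, so no test was made. Exon lengths came from GENCODE M21 (GRCm38), and promoters and miRNAs from RefSeq (GRCm38.p6). Steps were tested on simulated data. The effectors and lists were chosen with earlier results of these data known. Named genes are the effectors, their copies, conjugation enzymes, signalling genes, neighbours, closest genes, and the 3 highest and 3 lowest of the other interferon-induced effectors. Counts over the signalling list include 1 gene that is not reported here.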

Additional observations from a re-analysis of the deposited data

How the results depend on the processing

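No paired analysis was possible because the series holds 1 group, Dicer_KO, with no second group to pair. Under DESeq2 size factors, total counts, raw counts or a pseudocount of 0.1, 3 effectors were past 2-fold, all of them higher in replicate 1. This number was 4 with no filter on low counts, 2 with a minimum mean of 50 counts and 2 at a 4-fold line. Total counts moved the median log2 ratio of all genes from 0.02 to 0.14, and that of the effectors from 0.21 to 0.33. Of 40 log2 ratios of single effectors under other scalings or pseudocounts, 8 left their counting interval, those of Ifitm1, Ifitm2, Ifitm3 and Bst2 with total or raw counts, and none of the 40 changed sign. Of the other interferon-induced effectors, 23 were past 2-fold in either direction and 8 were past the 4-fold line, which is a stricter line by construction. The number past 2-fold was 23 with DESeq2 size factors or a pseudocount of 0.1, 25 with total or raw counts, 26 with no filter and 20 with a minimum mean of 50 counts. With each replicate left out, a mean CPM becomes the value of the other library, which shows no stability. Depth limits Ifit3 and the values of Isg15 and Usp18 in replicate 2.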
